A study of Mus musculus with 12 samples.

Results

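The effect of additionally losing Rb1 was examined by comparing 4 liver tumors labelled TKO with 4 liver tumors labelled DKO across all genes that passed a filter on low counts, 13882 of the 26301 genes in the table, in 8 of the series' 12 RNA-seq libraries. The DKO tumors came from mice with conditional E2f7 and E2f8 alleles deleted by Alb-Cre, and the TKO tumors from mice in which conditional Rb1 was deleted as well, so both groups carry Alb-Cre and the loss of E2f7 and E2f8, and Rb1 is the only labelled genetic difference. The paper describes the albumin promoter as specific to hepatocytes, and cells of a tumor in which Cre was never active keep their alleles. The mice were of the FVB background and labelled adult, and the tumors were taken at a humane end point in an ageing study, without an age for each animal in the labels. The paper reports a longer tumor latency in DKO than in TKO mice and more Ki67-positive cells in TKO tumors. Age and tumor stage can therefore differ with genotype, and their part was not tested. The other 4 libraries, from age-matched wild-type livers (WT), were used as a reference and for the estimate of spread. No gene was called between TKO and DKO tumors by edgeR's quasi-likelihood test, so the values below describe these 8 tumors, and a difference is written as higher or lower without being a call.

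RB, the product of Rb1, binds the activating E2F factors and holds genes for DNA synthesis and mitosis silent until cyclin D with CDK4 or CDK6, and then cyclin E with CDK2, phosphorylate it. E2F7 and E2F8 are atypical E2Fs that bind the same kind of site without a DP partner and repress transcription. RB and the atypical E2Fs therefore restrain overlapping sets of promoters, and in liver the atypical E2Fs are known for their part in hepatocyte polyploidy. The comparison asks what changes in the RNA of a liver tumor when the RB brake is lost on top of the atypical E2F brake.

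Promoter sequence is shown for the cell cycle genes Mcm6, Mcm7 and Cdk4. It is also shown for Gpr19 and Fuom, which are among the genes named as higher in TKO tumors. Upstream windows of 250 bases were read from RefSeq (GRCm38.p6) and searched on both strands for an E2F site, spelled TTTCCCGC, TTTCGCGC, TTTGGCGC or TTTGCCGC, and, after the values were seen, for the E-box CACGTG that MYC and related factors bind. Of the 12 genes named as higher in TKO tumors, 9 had a window to search, and among these Gpr19 and Fuom held an E2F site. Mcm6 and Mcm7 are replicative helicase subunits with an E2F site, and Cdk4 held no E2F site but 4 E-boxes. Gpr19 and Mcm7 also have other windows, which held no E2F site and are not shown. Capitals mark the E2F sites in the first 4 sequences and the E-boxes in the last, all written 5′ to 3′ on the strand of the gene, and overlapping sites run together. The windows are chr6:134897826-134898075 on the minus strand for Gpr19, chr7:140102442-140102691 on the minus strand for Fuom, chr1:128359706-128359955 on the minus strand for Mcm6, chr5:138171884-138172133 on the minus strand for Mcm7 and chr10:127063285-127063534 on the plus strand for Cdk4.
Gpr19: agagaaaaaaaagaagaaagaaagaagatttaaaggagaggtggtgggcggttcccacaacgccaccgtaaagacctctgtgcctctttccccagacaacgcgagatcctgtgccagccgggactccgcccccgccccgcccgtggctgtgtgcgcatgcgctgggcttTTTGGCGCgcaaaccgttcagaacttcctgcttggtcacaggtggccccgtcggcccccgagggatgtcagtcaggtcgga
Fuom: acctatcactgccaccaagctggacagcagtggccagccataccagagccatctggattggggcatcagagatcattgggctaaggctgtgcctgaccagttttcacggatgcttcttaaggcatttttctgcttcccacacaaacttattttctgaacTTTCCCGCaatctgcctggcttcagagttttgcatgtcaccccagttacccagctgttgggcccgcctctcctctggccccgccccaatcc
Mcm6: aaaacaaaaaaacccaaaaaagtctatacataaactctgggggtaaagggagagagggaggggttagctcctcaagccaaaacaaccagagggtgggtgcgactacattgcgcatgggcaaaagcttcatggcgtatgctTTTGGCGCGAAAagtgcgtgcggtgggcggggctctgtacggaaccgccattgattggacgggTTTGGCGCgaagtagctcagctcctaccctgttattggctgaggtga
Mcm7: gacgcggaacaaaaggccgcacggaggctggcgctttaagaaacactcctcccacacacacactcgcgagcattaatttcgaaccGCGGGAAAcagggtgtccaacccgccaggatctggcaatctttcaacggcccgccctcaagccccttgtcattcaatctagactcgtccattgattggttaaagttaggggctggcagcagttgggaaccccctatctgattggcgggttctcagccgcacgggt
Cdk4: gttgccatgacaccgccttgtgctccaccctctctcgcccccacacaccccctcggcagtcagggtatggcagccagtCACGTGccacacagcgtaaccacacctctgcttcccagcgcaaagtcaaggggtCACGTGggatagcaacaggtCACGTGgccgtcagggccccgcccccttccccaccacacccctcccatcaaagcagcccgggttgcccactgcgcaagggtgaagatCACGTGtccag

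An E2F site was present in the windows of 3.75% of the 10424 tested genes with a promoter in the RefSeq table and in 9 of 39 genes (23.1%) of a list for replication licensing and the replisome, against 2 of 52 genes (3.85%) of a list for mitosis and cytokinesis. At least 1 E-box was found in 9.84% of the tested windows, and 4 or more in only 3 genes (0.0288%), of which Cdk4 was one. The CHR element (TTTGAA or TTCGAA), through which the DREAM complex acts on mitotic genes, was present in 40.4% of the mitosis windows and in 15.1% of all tested windows. In the replication list the 9 genes with a site had a median log2 fold change of -0.02 between TKO and DKO tumors and the 30 without one had 0.21. The 391 tested genes with an E2F site had a median log2 fold change of 0.03 between the groups, and the 10033 with a window and no site had 0.00. In 14 genes (3.58%) with a site all 4 TKO values lay above all 4 DKO values, and in 5 (1.28%) below, against 2.56% and 2.18% of the genes without one. A match to these letters is a description of the window and not evidence of binding.

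The deleted genes were examined first, as CPM, the counts of a gene scaled by edgeR's TMM method to a common library size. Rb1 (chr14:73583480-73725629, mm9) was at 11.3, 8.38, 7.99 and 8.37 CPM in DKO 1 to 4 and 4.22, 5.47, 4.91 and 3.21 CPM in TKO 1 to 4. Every TKO tumor was below every DKO tumor and every WT liver, which were at 10.7, 6.52, 8.27 and 7.69 CPM. The log2 fold change was -1.01 (SE 0.215), and on log2 CPM the difference of -1.01 gave p = 0.0286 in a two-sided exact permutation test over 70 assignments, the smallest p that 4 against 4 tumors allow, and 0.0857 after adjustment over the 3 deleted genes. Counts over the whole gene do not separate deleted from intact alleles, and Rcbtb2 and Lpar6 overlap Rb1 on the other strand, so their reads cannot be told apart from it where the genes overlap. E2f7, deleted in both groups, was at 1.84, 1.58, 0.946 and 0.236 CPM in DKO 1 to 4 and 0.844, 0.782, 0.690 and 0.895 CPM in TKO 1 to 4. E2f8 was at 7.59, 45.6, 11.4 and 17.3 CPM in DKO 1 to 4 and 26, 13.8, 52.2 and 12.3 CPM in TKO 1 to 4. Both overlapped between the groups, with exact permutation p = 0.8286 for E2f7 and 0.571 for E2f8, and neither checks the label of the TKO tumors. Without DKO 1 or DKO 2 the difference of E2f7 in mean log2 CPM changed sign.

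Over all tested genes, edgeR called 0 at an adjusted p under 0.05 (0% in either direction), and at an unadjusted p under 0.05 there were 717 genes higher (5.16%) and 533 lower (3.84%) in TKO tumors. The values of the 2 groups did not overlap for 676 genes (4.87%), 382 with all TKO tumors above all DKO tumors (2.75%) and 294 below (2.12%). DESeq2, the tool in the study's methods, called 56 of 14070 genes (0.398%), 24 higher (0.171%) and 32 lower (0.227%), and 48 of the 56 were without overlap. For comparison, the same edgeR fit called 336 genes (2.42%) between DKO tumors and WT livers and 12 (0.0864%) between TKO tumors and WT livers. The plot of fold change against p shows that many of the widest fold changes belonged to genes whose groups overlapped.

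**Figure D1:**
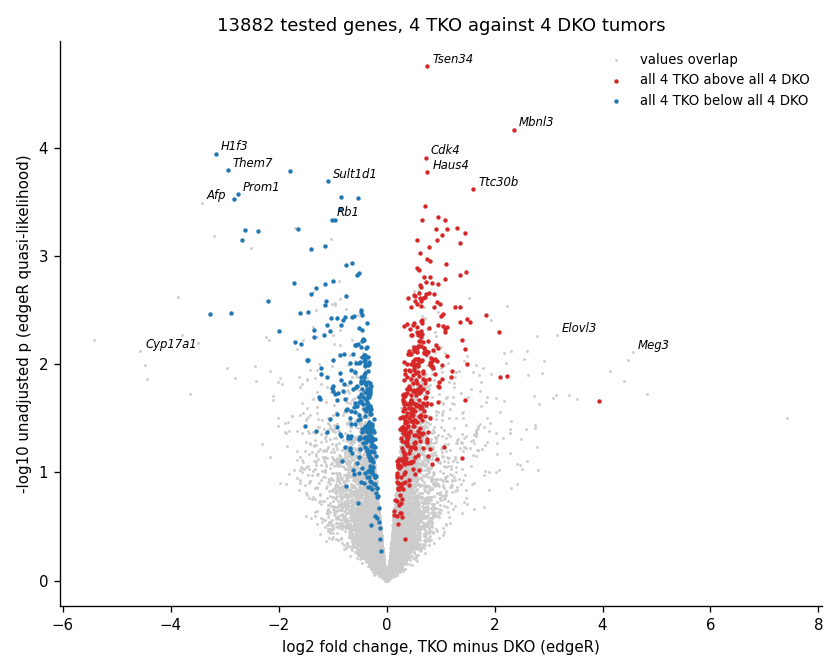
Each point is 1 of the 13882 tested genes, with the edgeR log2 fold change of TKO minus DKO tumors on the x axis and -log10 of the unadjusted quasi-likelihood p on the y axis. Red marks the 382 genes with all 4 TKO values above all 4 DKO values, blue the 294 with all below and grey the rest, and Cyp17a1, Meg3 and Elovl3 are grey although their fold changes are among the widest.

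Total counts ran from 13156779 to 16424973 in DKO tumors and from 10455159 to 16313303 in TKO tumors, and albumin took 11.9% to 22.7% and 4.82% to 18.9% of them. Pearson's r of log2 CPM was 0.937 to 0.966 between DKO tumors, 0.913 to 0.964 between TKO tumors and 0.910 to 0.966 between a DKO and a TKO tumor, so the ranges within and between the genotypes overlapped. With total counts as the only scaling the median log2 fold change of all tested genes moved from 0.01 to 0.11, the share with a higher mean in TKO tumors from 51.2% to 64.6%, the genes without overlap above from 382 to 412 and those below from 294 to 70. Hepatocyte marker genes, albumin among them, had a summed CPM per total count of 155049 to 270887 in DKO tumors and 83155 to 240302 in TKO tumors. WT livers were at 108748 to 145068, so the lowest TKO tumor was below every WT liver. Xist was at 0.365 CPM per total count or less in every library, and the Y-linked Ddx3y was detected in all of them.

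Among the genes of the RB pathway, Cdk4 showed the clearest separation. Cdk4 (chr10:126500590-126504976, mm9), the kinase that phosphorylates RB with D-type cyclins, was at 33.4, 34.9, 34.4 and 28.8 CPM in DKO 1 to 4 and 63.4, 54.7, 45.6 and 53.9 CPM in TKO 1 to 4. All TKO tumors were above all DKO tumors and above all WT livers, which were at 32.9, 39.96, 39.9 and 32.2 CPM. The difference was 0.73 (log2 fold change, SE 0.132, edgeR adjusted p = 0.281), with an adjusted p of 0.00161 by DESeq2, and it lay between 0.65 and 0.83 under all alternatives. Cdk4 overlaps Tspan31 on the other strand, which had about 227 CPM in DKO and 276 CPM in TKO tumors on average, and the strand setting of the counting is not given in the sources used here. Reads of Tspan31 within Cdk4 can therefore not be told apart from reads of Cdk4, and Tspan31 itself overlapped between the groups (log2 fold change 0.29).

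Of the 11 G1 cyclins and kinases tested, 8 had a higher mean in TKO tumors, with a median log2 fold change of 0.20 that became -0.06 without TKO 1. Cdk2, the partner of cyclin E, was at 16.7, 28.5, 16.1 and 12.6 CPM in DKO 1 to 4 and 26.4, 26.2, 23.5 and 31.9 CPM in TKO 1 to 4, and only DKO 2 reached into the TKO range (log2 fold change 0.55). Ccne2, a cyclin E, had a log2 fold change of 0.66 that rested on TKO 1 and was -0.04 without it. The 3 members with a lower mean were Ccnd1, Cdk6 and Ccnd2. Ccnd1, cyclin D1, was at 73.2, 153, 154 and 155 CPM in DKO 1 to 4 and 109.6, 46.8, 28.3 and 99 CPM in TKO 1 to 4, so that DKO 1 lay apart from the other DKO tumors and inside the TKO range. Its log2 fold change was -0.92, against -0.54 for Cdk6 and -0.32 for Ccnd2, and none passed the test.

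CDK inhibitors, which hold these kinases back, had a lower median level in every TKO tumor. The median over the 8 tested inhibitors, as log2 difference from the mean of the WT livers, was 0.90, 0.78, 0.49 and 1.07 in DKO 1 to 4 and -0.07, 0.43, 0.32 and 0.20 in TKO 1 to 4, and the groups did not overlap. Cdkn2b, the INK4 inhibitor p15 of CDK4 and CDK6, was at 1.38, 1.27, 0.828 and 1.42 CPM in DKO 1 to 4 and 0.603, 0.782, 0.690 and 0.522 CPM in TKO 1 to 4, lower in every TKO tumor. Cdkn1a, p21, was at 41.6, 41.7, 39.4 and 17.5 CPM in DKO 1 to 4 and 13.9, 28.9, 14.1 and 21.6 CPM in TKO 1 to 4. DKO 4 lay apart from the other DKO tumors and within the TKO range. The log2 fold changes were -0.90 and -0.84, with edgeR adjusted p = 0.498 and 0.585, and Cdkn2d was at -0.38. Cdkn3, a phosphatase that acts on CDK2, had a log2 fold change of 0.60, which was -0.06 without TKO 1. The median log2 fold change of the list was -0.15, against -0.35 without TKO 2 and -0.03 with total counts as the only scaling, and 5 of its 8 members had a lower mean.

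The E2F and DP factors did not move as a group, with 4 of 8 means higher and 4 lower. Tfdp1, the DP1 partner of the activating and repressing E2Fs, was at 11.4, 13.4, 9.58 and 11.7 CPM in DKO 1 to 4 and 17.4, 17.7, 11.6 and 19.4 CPM in TKO 1 to 4. TKO 3 lay inside the DKO range and the other TKO tumors above it (log2 fold change 0.52, edgeR adjusted p = 0.450). E2f4 was at 0.26, E2f5 at -0.23, E2f1 at -0.32 and E2f2 at -0.62 on the log2 fold change scale. Of 28 p53 pathway genes, 19 had a lower mean in TKO tumors (median -0.22). Trp53 itself was at 19.9, 19.3, 19.1 and 16.9 CPM in DKO 1 to 4 and 27.5, 30.1, 20.6 and 20.4 CPM in TKO 1 to 4, higher in every TKO tumor (log2 fold change 0.39), and so was the repair gene Ddb2 (0.44). Trp53inp1, a stress-induced target, was lower in every TKO tumor (-0.66). The antiproliferative Btg2 was at 97, 57.6, 52.5 and 35.2 CPM in DKO 1 to 4 and 20.7, 52.7, 13.8 and 7.16 CPM in TKO 1 to 4, with TKO 2 among the DKO tumors (log2 fold change -1.36), while the death receptor Tnfrsf10b had -0.83 and Bax 0.39. None of these passed edgeR's test or DESeq2's.

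**Figure D2:**
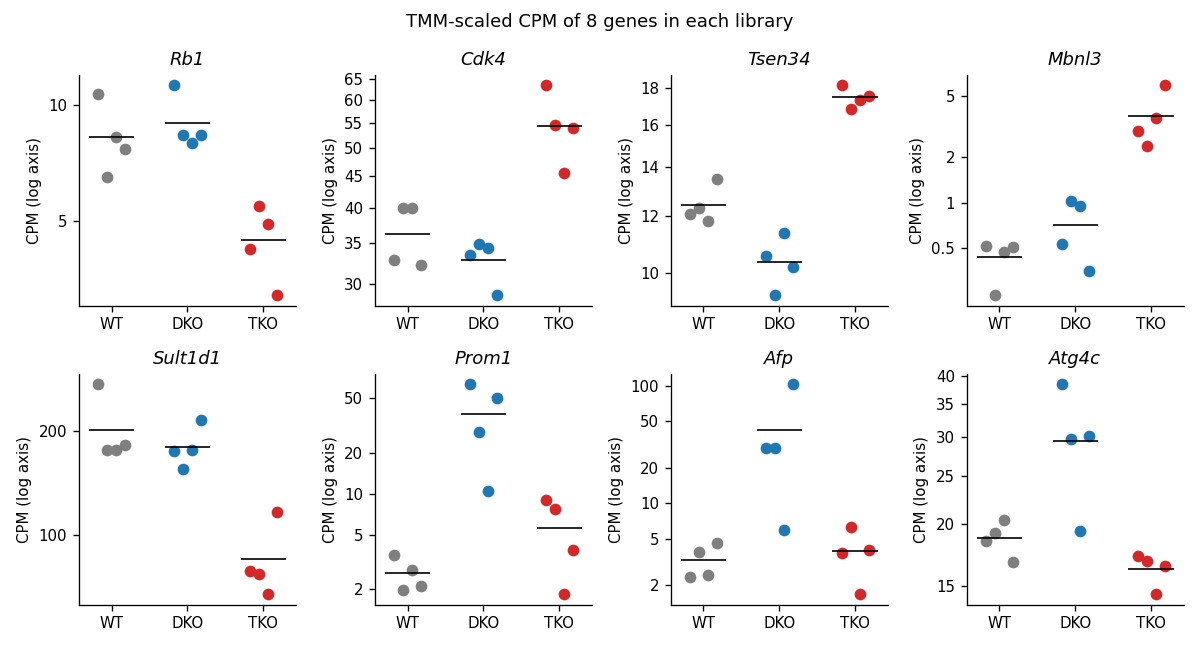
Each point is the TMM-scaled CPM of 1 library on a log axis, for 4 WT livers, 4 DKO and 4 TKO tumors, and the bar is the group mean. Rb1 and Atg4c are below, and Cdk4, Tsen34 and Mbnl3 above, the DKO range in all TKO tumors, while Sult1d1 is lower in every TKO tumor. Prom1 is widely spread in both tumor groups, and Afp is spread more widely among the DKO than the TKO tumors.

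Genes for DNA replication and genes for mitosis had medians of opposite sign. Of 47 tested genes for replication licensing and the replisome, 32 (68.1%) had a higher mean in TKO tumors, with a median log2 fold change of 0.16, and of 61 genes for mitosis and cytokinesis 55 had a lower mean and 6 (9.84%) a higher one, with a median of -0.47. Over all tested genes 51.2% had a higher mean and the median was 0.01. Set against the WT livers, the replication list was at 0.22, 1.25, 0.42 and 0.02 in DKO 1 to 4 and at 1.27, 0.34, 0.11 and 0.68 in TKO 1 to 4, and the mitosis list at 1.55, 2.24, 1.02 and 0.60 and 1.63, 0.78, 0.17 and 1.19. Both lists overlapped between the groups, as the plot of gene lists by library shows. The genes of a list move together from tumor to tumor, so the counts of genes are not counts of independent observations. Without DKO 2 the mitosis median was -0.09 and without TKO 1 the replication median was -0.04, against 0.45 without DKO 2.

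The highest members of the replication list were Mcm10, Prim1 and Pole2. Mcm10, which acts when the replicative helicase is switched on, was at 21.5, 31.5, 44.7 and 18.1 CPM in DKO 1 to 4 and 57.8, 42.5, 91.7 and 53.5 CPM in TKO 1 to 4, and only TKO 2 fell short of the highest DKO tumor. WT livers were above every DKO tumor, at 87.5, 138, 149.5 and 65.7 CPM. Prim1, the primase that starts each DNA strand, was at 7.21, 14.2, 7.16 and 3.48 CPM in DKO 1 to 4 and 21.2, 16.8, 12.3 and 14.3 CPM in TKO 1 to 4, with DKO 2 inside the TKO range. Cdt1, which licenses origins, was at 3.91, 7.36, 6.51 and 2.89 CPM in DKO 1 to 4 and 11, 8.32, 6.52 and 11.1 CPM in TKO 1 to 4, with DKO 2 inside it as well and TKO 3 at the level of DKO 3. Pole2, a subunit of polymerase epsilon, had a log2 fold change of 0.96, against 1.08 for Mcm10, 1.02 for Prim1 and 0.84 for Cdt1. The upstream windows of Mcm10, Prim1 and Cdt1 held no E2F site in these letters. The helicase subunits shown above were less distinct, with Mcm6 at 24.6, 57, 32.5 and 12.5 CPM in DKO 1 to 4 and 67.4, 29.99, 12.3 and 33.1 CPM in TKO 1 to 4 and Mcm7 at 17.9, 32.1, 20.4 and 11.1 CPM in DKO 1 to 4 and 35.3, 25, 17.4 and 27.8 CPM in TKO 1 to 4. Mcm6, with 3 matches in its window, had a log2 fold change of 0.18 that changed sign without DKO 4 or TKO 1, and Mcm7 had 0.37. At the lower end were Cdc6 (-0.53, and 0.32 without DKO 2), Orc4 (-0.49) and Cdc7 (-0.40). Orc4, of the origin recognition complex, was the only member without overlap, at 20.3, 23.7, 18.8 and 20.6 CPM in DKO 1 to 4 and 15.1, 16.1, 11 and 17.2 CPM in TKO 1 to 4. It made up 2.13% of the list, near the 2.12% of all tested genes without overlap and lower. Members without overlap and higher were 0%, against 2.75% of all tested genes.

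Of the 61 genes of the mitosis list, Incenp, a subunit of the chromosomal passenger complex, was the only one without overlap between the groups. It was lower in TKO tumors and made up 1.64% of the list, against 2.12% of all tested genes. Members without overlap and higher were 0%, against 2.75% of all tested genes. Haus4, a spindle gene outside the list, was without overlap in the other direction and is given with the named genes. Incenp was at 7.21, 9.18, 4.79 and 4.72 CPM in DKO 1 to 4 and 4.16, 3.20, 3.53 and 4.63 CPM in TKO 1 to 4, and DKO 4 and TKO 4 were close (log2 fold change -0.73, edgeR adjusted p = 0.517). The lowest members were Ect2, which starts the cleavage furrow, with 7.21, 22.3, 7.81 and 6.13 CPM in DKO 1 to 4 and 9.77, 3.20, 2.07 and 6.27 CPM in TKO 1 to 4, Nusap1 (log2 fold change -0.91) and Top2a (-0.86). The value of Ect2 in DKO 2 lay apart from the other DKO tumors, and its log2 fold change of -1.02 was -0.40 without that tumor. The highest were the kinetochore genes Spc24 (0.66) and Cenpa (0.37) and the cyclin Ccnb2 (0.30, and -0.12 without TKO 1).

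**Figure D3:**
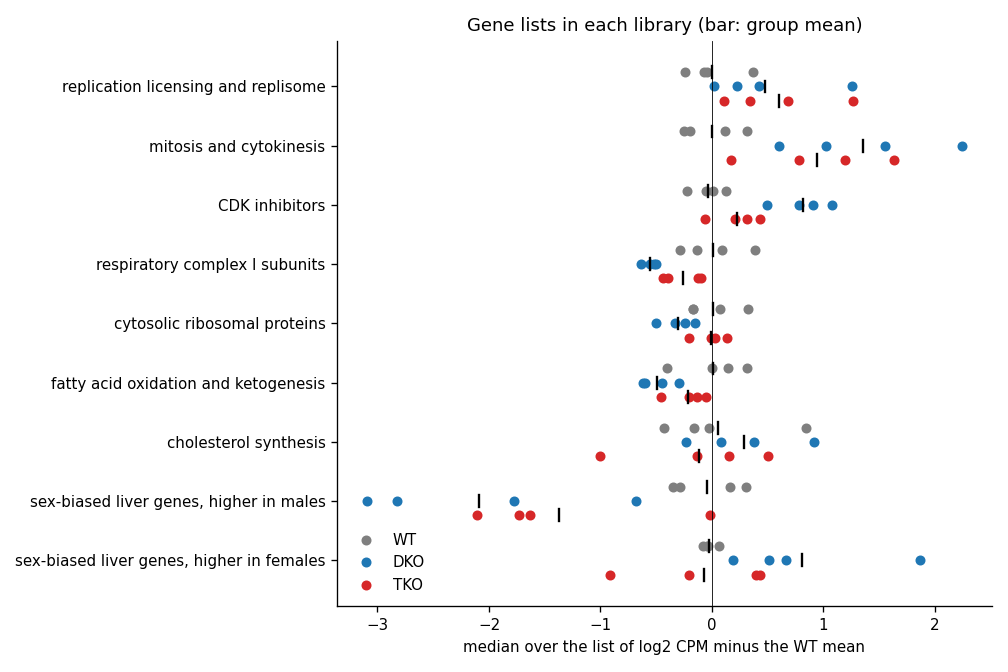
Each point is 1 library, and its place on the x axis is the median over a gene list of log2 CPM minus the mean of the WT livers, with a black bar at the mean of 4 libraries. CDK inhibitors and respiratory complex I separate DKO (blue) from TKO (red) tumors without overlap, while the other 7 lists overlap.

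Transcripts of histone genes that are normally made without a poly(A) tail had a lower mean in TKO tumors in 10 of 12 tested members, with a median log2 fold change of -0.67, which was -0.37 over the members with at least 10 counts in every library. The linker histone H1f3 was at 0.613, 2.06, 0.651 and 2.59 CPM in DKO 1 to 4 and 0.121, 0.213, 0.0767 and 0.224 CPM in TKO 1 to 4, and H1f4 at 1.30, 2.45, 0.946 and 2.06 CPM in DKO 1 to 4 and 0.904, 0.426, 0.307 and 0.373 CPM in TKO 1 to 4. Both, and H3c15 (log2 fold change -1.70), were lower in every TKO tumor than in every DKO tumor. The log2 fold changes of H1f3 and H1f4 were -3.16 and -1.71, H1f3 was called by DESeq2 (adjusted p = 0.00484), and with 1 to 3 counts of H1f3 in each TKO tumor its fitted fold change depends on the prior count. The RNA was poly(A) selected, so these values count only histone RNA that passed that selection.

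The genes with the lowest p on the higher side were led by Tsen34, a catalytic subunit of the tRNA splicing endonuclease (chr7:3644977-3652625, mm9). It was at 10.6, 9.33, 11.4 and 10.2 CPM in DKO 1 to 4 and 18.2, 16.8, 17.3 and 17.5 CPM in TKO 1 to 4. The TKO tumors lay close together and above every DKO tumor and every WT liver (log2 fold change 0.75, SE 0.111, edgeR adjusted p = 0.243, DESeq2 adjusted p = 6.29e-05). Mbnl3, a muscleblind protein that regulates RNA splicing (chrX:48470446-48559709), was at 0.537, 1.03, 0.946 and 0.354 CPM in DKO 1 to 4 and 2.95, 2.35, 3.61 and 5.89 CPM in TKO 1 to 4, at low level throughout but higher in every TKO tumor (log2 fold change 2.36, SE 0.402, edgeR adjusted p = 0.281). Wdr6, a protein of tRNA methylation, was at 17.1, 21.3, 18.4 and 20.2 CPM in DKO 1 to 4 and 23.6, 35.7, 29.7 and 37.6 CPM in TKO 1 to 4 and separated the groups as well (log2 fold change 0.72, SE 0.147, edgeR adjusted p = 0.281). Tsen34 and Wdr6 overlap Mboat7 and Dalrd3 on the other strand, and those 2 genes had log2 fold changes of 0.13 and 0.41.

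Haus4, a subunit of the augmin complex that branches spindle microtubules, was at 9.05, 11.2, 11.2 and 9.08 CPM in DKO 1 to 4 and 16.5, 16.1, 19.5 and 16.4 CPM in TKO 1 to 4, with a log2 fold change of 0.76. WT livers were at 16.2, 22.7, 17.6 and 19 CPM, and DKO tumors were lower than WT livers (log2 fold change -0.90, edgeR adjusted p = 0.0292) while TKO tumors were at -0.14. Fuom, a fucose mutarotase whose promoter is shown above, was at 9.97, 8.31, 12.4 and 10.1 CPM in DKO 1 to 4 and 23.1, 16.6, 23.4 and 13.7 CPM in TKO 1 to 4, and Gpr19, an orphan receptor with an E2F site upstream, at 1.92, 1.82, 1.77 and 1.42 CPM in DKO 1 to 4 and 3.62, 3.13, 4.53 and 3.43 CPM in TKO 1 to 4. Both were higher in every TKO tumor, by 0.91 and 1.08 on the log2 scale, and both were called by DESeq2 (adjusted p = 0.0210 and 0.0152) and not by edgeR's quasi-likelihood test. The remaining named genes on this side were Ptges2, a prostaglandin E synthase (0.66), Rps27rt, a retrocopy of a ribosomal protein gene (0.96), and the gene models Gm10059 (1.31) and Gm6654 (1.12). The last 3 have near-identical copies or lie on the other strand of another gene, and their counts are uncertain.

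Ttc30b and its paralogs belong to the complex that carries cargo into the cilium (intraflagellar transport B). Ttc30b was at 5.67, 5.06, 6.21 and 5.54 CPM in DKO 1 to 4 and 13.1, 12.4, 16.3 and 26.8 CPM in TKO 1 to 4, Ttc30a1 at 2.61, 3.40, 3.55 and 3.01 CPM in DKO 1 to 4 and 4.82, 4.05, 6.21 and 7.91 CPM in TKO 1 to 4 and Ttc30a2 at 1.69, 0.870, 2.13 and 2.24 CPM in DKO 1 to 4 and 4.28, 2.77, 4.14 and 6.71 CPM in TKO 1 to 4. All 3 were higher in every TKO than in every DKO tumor, by 1.60, 0.87 and 1.36 on the log2 scale. They are near-identical neighbours on chromosome 2, and reads that fit more than one of them cannot be assigned from these counts, so the separation is not of 3 independent genes. The other 15 tested members of the complex were without such a separation, and Ift80 (-0.45), Ttc26 (-0.43, and 0.08 without DKO 3) and Ift74 (-0.32) were the lowest.

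On the lower side were genes that were high in DKO tumors against WT livers. Prom1, the stem and progenitor marker CD133, was at 63.5, 28.5, 10.5 and 50.4 CPM in DKO 1 to 4 and 8.98, 7.75, 1.84 and 3.88 CPM in TKO 1 to 4, and at 3.56, 1.97, 2.78 and 2.12 CPM in WT livers. Phlda2, an imprinted growth regulator, was at 1.61, 1.27, 0.887 and 4.25 CPM in DKO 1 to 4 and 0.301, 0.497, 0.0767 and 0.224 CPM in TKO 1 to 4, and at 0.297, 0.246, 0.271 and 0.293 CPM in WT livers. Both separated DKO from TKO tumors (log2 fold changes -2.76 and -2.82, edgeR adjusted p = 0.281 for each, DESeq2 adjusted p = 0.000513 and 0.00862). Between DKO tumors and WT livers they passed edgeR's test, with log2 fold changes of 3.85 and 2.81, and between TKO tumors and WT livers the log2 fold change was 1.10 for Prom1, with Phlda2 near 0, and neither passed. Phlda2 had 1 to 7 counts in each TKO tumor. The same DKO tumors enter both comparisons, so high values in them raise one and lower the other.

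Afp, alpha-fetoprotein, a fetal liver protein and tumor marker, belonged to the same pattern, at 29.7, 29.7, 5.91 and 104 CPM in DKO 1 to 4 and 3.80, 6.25, 1.69 and 4.03 CPM in TKO 1 to 4. DKO 3 lay inside the TKO range, and DKO 4 was far above the rest (log2 fold change -3.42, SE 0.693, edgeR adjusted p = 0.281, DESeq2 adjusted p = 0.000179). Without DKO 4 its log2 fold change was -2.46. Among 29 tested oncofetal genes, 18 had a lower mean in TKO tumors (median -0.14, and 0.19 without DKO 1). Sprr1a (-1.87) and Akr1b7 (-1.97, and 0.33 without DKO 4) were the lowest after Afp, and Igf2 (2.81), Tff3 (1.90) and Bex2 (1.20) the highest. Cholangiocyte and progenitor markers had a lower mean in TKO tumors in 7 of 9 tested genes (median -0.75), with Prom1, Pkhd1 (-1.15), Epcam (-1.08) and Cd24a (-1.08) among them. Their summed level per total count, without TMM scaling, was 106 to 191 CPM over 14 markers in DKO tumors and 68.2 to 93.6 CPM in TKO tumors. These did not overlap on that scale, and WT livers were at 48.2 to 75.0 CPM. Prom1, named because its values separate these same tumors, is part of the sum, and no sum without it was made. The lack of overlap is therefore not separate from that of Prom1. In bulk tissue fewer cells of a type and less RNA per cell cannot be told apart, and the part of these cells in the other differences was not tested.

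Among the genes with the lowest p or called by DESeq2 on the lower side were single metabolic enzymes, while the lists that cover such enzymes had medians near 0. Of 60 genes of amino acid catabolism and the urea cycle 38 had a higher mean in TKO tumors (median 0.10), of 49 phase II conjugation enzymes 28 (median 0.11) and of 28 genes of bile acid synthesis and transport 15 (median 0.02). These medians were -0.09 without TKO 3 for the first list, and -0.24 and -0.14 without TKO 4 for the others. For Them7, Sult1d1, Akr1d1 and Klhl7 every TKO tumor was below every WT liver as well. Them7, of the thioesterase superfamily, was at 5.90, 9.97, 28.6 and 18.1 CPM in DKO 1 to 4 and 0.844, 1.21, 2.22 and 3.95 CPM in TKO 1 to 4, and at 17.6, 21.4, 18.7 and 37.2 CPM in WT livers (log2 fold change -2.94, SE 0.551, edgeR adjusted p = 0.281, and log2 fold change -3.54, edgeR adjusted p = 0.0499 against WT livers). The sulfotransferase Sult1d1 was at 175, 155, 176 and 214 CPM in DKO 1 to 4 and 78.8, 77.5, 67.7 and 117 CPM in TKO 1 to 4, lower in every TKO tumor (log2 fold change -1.08). Acmsd, which diverts tryptophan breakdown away from NAD, was at 28.1, 38.3, 42.6 and 61.7 CPM in DKO 1 to 4 and 23.7, 11.1, 7.21 and 12.7 CPM in TKO 1 to 4 (-1.64). Urad, of urate degradation, had -0.96, and Akr1d1, the steroid reductase of bile acid synthesis, had -1.04, with TKO 1 just above DKO 2. Other named genes lower in every TKO tumor were the ubiquitin ligase adaptor Klhl7 (-0.84), the endoplasmic reticulum co-chaperone Dnajc1 (-0.53), the autophagy protease Atg4c (-0.86) and Ocstamp, known from cell fusion in osteoclasts (-2.61). All were called by DESeq2, with adjusted p from 0.000147 for Them7 to 0.0110 for Atg4c, and none by edgeR's quasi-likelihood test.

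Laminins, collagens and integrins had no common direction (26 of 47 lower, median -0.09). The collagen-binding integrin Itga2 was at 5.37, 2.29, 1.83 and 2.06 CPM in DKO 1 to 4 and 1.57, 0.711, 0.537 and 1.19 CPM in TKO 1 to 4, and the laminin-binding Itga3 at 13.9, 11.8, 12.3 and 23 CPM in DKO 1 to 4 and 9.04, 10.9, 8.13 and 7.53 CPM in TKO 1 to 4. Both, and their common partner Itgb1 (log2 fold change -0.32), were lower in every TKO tumor, with log2 fold changes of -1.50 for Itga2 and -0.77 for Itga3. Itgb4 (-1.47) and Nid1 (-1.04) were low as well but overlapped, and Col6a1 (1.47), Col6a2 (1.42) and Col8a1 (1.36, and -0.14 without TKO 4) were the highest of the list.

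Liver genes that differ between the sexes lay on opposite sides in their means, although all 12 mice carried the Y-linked transcripts of males. Of 25 genes that male livers express more, 20 had a higher mean in TKO tumors, with a median log2 fold change of 1.12, and of 24 genes that female livers express more, 22 had a lower mean, with a median of -0.55. Relative to the WT livers the male-biased list was at -2.82, -1.77, -0.68 and -3.09 in DKO 1 to 4 and -1.73, -2.11, -0.02 and -1.63 in TKO 1 to 4, so every tumor was below the WT mean and TKO 3 was closest to it. The female-biased list was at 0.51, 0.19, 0.67 and 1.86 and -0.21, 0.43, -0.91 and 0.40. The lists overlapped between the groups, and without TKO 3 the male-biased median was 0.52. The female-biased median was -0.26 without DKO 4 and -1.09 without TKO 4.

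Elovl3, a fatty acid elongase of male liver, was at 3.91, 5.38, 5.32 and 3.36 CPM in DKO 1 to 4 and 5.73, 3.06, 104 and 47.5 CPM in TKO 1 to 4, so TKO 1 and TKO 2 were at the level of DKO tumors and TKO 3 and TKO 4 far above. Hsd3b5, a male steroid reductase, was at 8.74, 26.3, 18 and 5.54 CPM in DKO 1 to 4 and 29.9, 21.5, 284 and 23.9 CPM in TKO 1 to 4, where TKO 3 lay apart. Bcl6, a repressor of female-biased genes in male liver, was at 11.1, 6.96, 8.58 and 15.5 CPM in DKO 1 to 4 and 12.8, 5.83, 56.2 and 38.3 CPM in TKO 1 to 4, high in the same 2 TKO tumors as Elovl3. Cux2, the female liver transcription factor, was at 7.21, 0.316, 2.48 and 12.6 CPM in DKO 1 to 4 and 0.482, 1.63, 0.690 and 0.0746 CPM in TKO 1 to 4, with DKO 2 inside the TKO range. Cyp17a1, a steroidogenic P450, was at 489, 5.38, 7.39 and 4.01 CPM in DKO 1 to 4 and 6.75, 9.24, 1.46 and 3.80 CPM in TKO 1 to 4 and Sult3a1, a sulfotransferase, at 5.83, 4.90, 6.27 and 479.9 CPM in DKO 1 to 4 and 3.38, 10.5, 1.07 and 7.39 CPM in TKO 1 to 4. Each of these was high in a single DKO tumor, DKO 1 for Cyp17a1 and DKO 4 for Sult3a1, and without it the log2 fold changes of -4.56 and -4.47 became -0.06 and -0.02. At the other end of the lists were Moxd1 (2.41, at low level in every tumor) and, against the direction of their list, Serpina1e (-0.64), Egfr (-0.60), Selenbp2 (-0.37) and Cyp4a14 (0.93).

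Of 35 genes of fatty acid oxidation and ketogenesis, 31 (88.6%) had a higher mean in TKO tumors (median log2 fold change 0.24). Cpt1a, which takes fatty acids into mitochondria, was at 277, 354, 362 and 294 CPM in DKO 1 to 4 and 581, 454, 366 and 605 CPM in TKO 1 to 4. It was higher in every TKO tumor, by 0.64 on the log2 scale, and Bdh1, of ketone body exchange, had 0.73 and Fgf21 0.75, which was 0.38 without DKO 3 and 0.11 without TKO 2. The lowest were Acsl5 (-0.28), Ehhadh (-0.26) and Ppargc1a (-0.23). Of 34 genes of de novo lipogenesis, 17 had a higher and 17 a lower mean (median 0.03, and -0.21 without TKO 1). Of 25 genes of cholesterol synthesis, 23 had a lower mean (median -0.39), and Pmvk (-0.93), Insig1 (-0.72) and Mvd (-0.72, and -0.04 without DKO 4) were the lowest and Scap (0.22, and -0.07 without TKO 2) the highest. None of the cholesterol genes was without overlap. Insig1, which holds SCAP back when sterols are high, was at 364, 561, 355 and 753 CPM in DKO 1 to 4 and 426, 317, 199 and 289.8 CPM in TKO 1 to 4, and without DKO 4 the median of the list was -0.04.

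Genes for the respiratory chain and for ribosomes had slightly higher means in TKO tumors across most members. In complex I, 35 of 37 tested subunits had a higher mean (median 0.31) and 9 (24.3%, against 2.75% of all tested genes) were without overlap and higher. The list was at -0.64, -0.55, -0.50 and -0.52 in DKO 1 to 4 and -0.12, -0.40, -0.10 and -0.44 in TKO 1 to 4 relative to the WT livers, so the groups did not overlap. Ndufa3 was at 6.59, 5.06, 6.98 and 5.54 CPM in DKO 1 to 4 and 20.9, 10.5, 19.5 and 11.1 CPM in TKO 1 to 4 and Ndufb7 at 7.13, 9.10, 9.52 and 10.4 CPM in DKO 1 to 4 and 20.2, 16.5, 28.2 and 13.4 CPM in TKO 1 to 4 (log2 fold changes 1.36 and 1.11, both called by DESeq2), followed by Ndufb11 (0.76). The other subunits without overlap were Ndufs7, Ndufb5, Ndufa2, Ndufs8, Ndufa12 and Ndufs5, and the lowest were Ndufv3 (-0.45) and Ndufb6 (-0.41). In complexes II to V, 32 of 38 had a higher mean (median 0.25), and Atp5g2, a subunit of the ATP synthase ring, was called by DESeq2 (0.79). The 15 genes encoded in the mitochondrial genome did not pass the filter on low counts.

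Of 88 tested cytosolic ribosomal protein genes, 83 (94.3%) had a higher mean (median 0.29), 16 (18.2%) were without overlap and higher, and 0 without overlap and lower. Rps27 was at 6.13, 4.51, 5.15 and 5.54 CPM in DKO 1 to 4 and 16, 10.7, 9.28 and 8.95 CPM in TKO 1 to 4 and Rps29 at 12.7, 12.4, 11.2 and 14.2 CPM in DKO 1 to 4 and 23.2, 29.8, 32.3 and 17.8 CPM in TKO 1 to 4, with log2 fold changes of 1.08 and 1.03, and Rps4l had 0.92. Other members without overlap included Rps18, Rpl37a, Rpl35a, Rpl37, Rps21, Rpl10a, Fau, Rps19, Rpl15, Rps3 and Rps27a. Mitochondrial ribosomal proteins had a median of 0.19 (66 of 77 higher, 13 without overlap and higher), Sm and LSm proteins of the spliceosome 0.32 (14 of 15 higher), host genes of small nucleolar RNAs 0.33 (13 of 14) and RNA polymerase II subunits 0.26 (9 of 13, and a median of 0.08 without TKO 1). Snhg8 (1.46) and Polr2i (1.47) were called by DESeq2. Of 590 tested genes with pseudogene-like symbols, 391 had a higher mean (median 0.14), 42 (7.12%) were without overlap and higher and 11 (1.86%) without overlap and lower, against 2.75% and 2.12% of all tested genes.

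These lists consist of short transcripts, with median lengths of 977 bases for complex I, 935 for cytosolic ribosomal proteins and 636 for pseudogene-like symbols against 3026 for all tested genes, and length moved with the difference over all genes. In 470 genes with transcripts up to 700 bases the median log2 fold change was 0.26, and 11.9% were without overlap and higher against 0.426% lower. The median went down with each class of length to -0.06 in the 4130 genes over 4000 bases, where 1.16% were without overlap and higher and 3.20% lower. The gap between the median of transcripts up to 1000 bases and of those over 4000 bases, in log2 CPM against the mean of the tumors, was -0.13, -0.21, -0.19 and -0.01 in DKO 1 to 4 and 0.25, 0.11, 0.24 and -0.03 in TKO 1 to 4. It was 0.01 to 0.68 among WT livers, which have the same genotype. Across 12643 genes Spearman's rho of the fold change was -0.188 with length and 0.302 with GC content, as a description across genes that share libraries. With a regression on GC content and length taken out of each library, the medians were 0.18 for complex I, 0.19 for cytosolic ribosomal proteins, 0.12 for mitochondrial ribosomal proteins, 0.09 for small nucleolar RNA host genes, 0.15 for complexes II to V, 0.13 for RNA polymerase II subunits and 0.02 for pseudogene-like symbols. The part of RNA quality or library preparation in these differences was not tested.

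**Figure D4:**
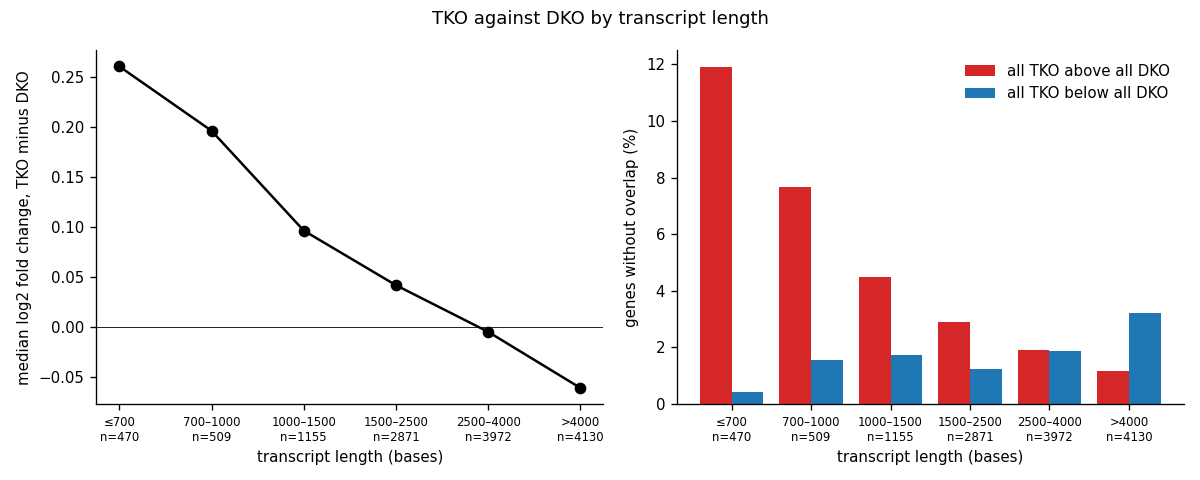
The tested genes with a known length are grouped by transcript length in bases (x axis, number of genes under each class). The left panel gives the median log2 fold change of TKO minus DKO tumors, which runs from 0.26 to -0.06, and the right panel the percent of genes with all TKO tumors above (red) or below (blue) all DKO tumors.

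Whole chromosomes were compared because tumors can gain or lose them, using genes with a mean of at least 5 CPM and the median difference from the mean of the WT livers. In WT livers these medians stayed between -0.07 and 0.09, and in tumors 6 of 160 were beyond 0.2 in either direction. DKO 1 was at -0.23 on chromosome 8 and 0.36 on chromosome X, DKO 4 at -0.28 on chromosome 10 and 0.28 on chromosome 16, and TKO 4 at -0.26 on chromosome 4 and -0.26 on chromosome 6. No shift of this size was shared by the tumors of a genotype. Chromosome 10, which carries Cdk4 and Cdk2, held the highest share of genes without overlap and higher in TKO tumors, 41 of 644 (6.37%) against 2.75% of all tested genes. Another 6 (0.932%) were lower, against 2.12% of all tested genes. In windows of 26 Mb, 25 of the 41 lay in window 4, among 195 tested genes. Window 5, which holds Cdk4, had 6 higher and 4 lower of 149. Without DKO 4, whose chromosome 10 was low, 46 genes of chromosome 10 (7.14%) were higher, against 5.44% over all genes, and 23 were lower. Over all genes 528 of 14050 were lower without that tumor, with the filter redone. The log2 fold change of Cdk4 was 0.67 without DKO 4. Within 10 Mb of Rb1 on chromosome 14, 98 other genes were tested, 1 was without overlap and higher and 3 lower, and their median log2 fold change was -0.01.

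**Figure D5:**
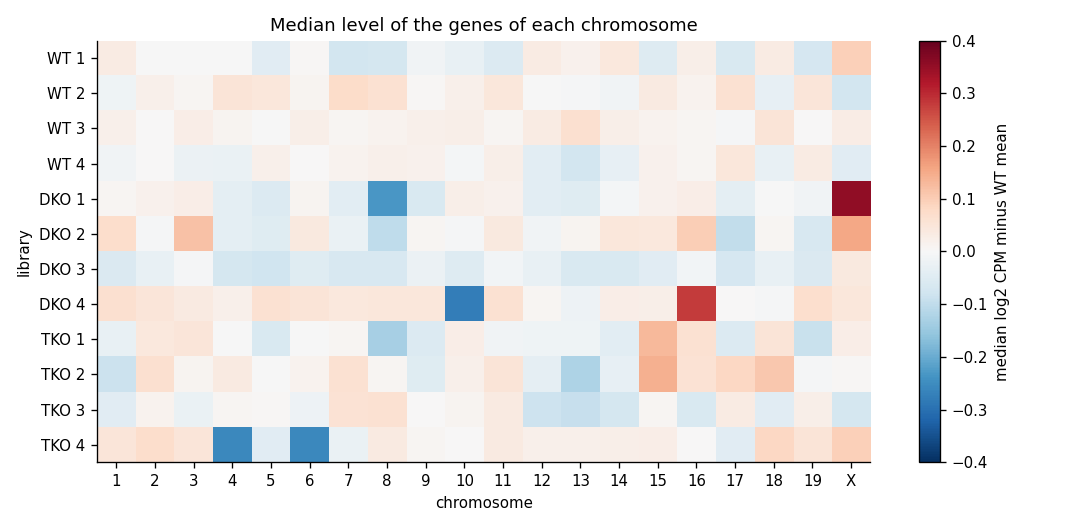
Rows are the 12 libraries and columns the chromosomes, and color gives the median over the genes of a chromosome of log2 CPM minus the mean of the WT livers. The strongest shifts lie in single tumors, DKO 1 on chromosomes 8 and X, DKO 4 on 10 and 16 and TKO 4 on 4 and 6, and the WT rows stay near 0.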

How the data were processed

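RNA from 4 WT livers, 4 DKO tumors and 4 TKO tumors was poly(A) selected and sequenced on a SOLiD instrument. The authors used BWA to place the reads on mm9 and FeatureCounts to count them, and the table they deposited holds raw counts per Entrez gene. Tool versions and the settings for strand and for reads with several matches are not given in the sources used here. Nothing in the labels says how animals or preparation days were shared, so p-values take each tumor as an independent sample. Those of edgeR and DESeq2 set a group difference against a spread estimated over all 12 libraries, WT livers included.

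Symbols were matched through RefSeq (GRCm38.p6) for 24191 of 26301 genes, which held 99.4% of the counts, and mm9 coordinates, transcript lengths and GC content came from GENCODE vM1. Counts were tested with edgeR 4.0.16 in R 4.3.3 (TMM scaling, filterByExpr by group, quasi-likelihood test of TKO minus DKO over all 12 libraries, Benjamini-Hochberg adjusted p under 0.05), after a check on simulated data. CPM are TMM scaled and log2 CPM have a prior count of 2, but summed marker levels and the values of Xist, Kdm5d and Eif2s3y are CPM per total count. DESeq2 1.42.0, edgeR's likelihood ratio test, limma 3.58.1 voom, other scalings and filters, a replicate block, a covariate from sex-linked genes and the omission of each tumor were alternatives, and the newer edgeR dispersion and a regression on GC content and length were added after seeing the data. Depth was 10455159 to 16424973 counts per tumor, which limits genes of few counts most.

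The gene lists, the E-box and the genes to describe were chosen with earlier results of these data known, so no list was tested. Named genes were Rb1, E2f7 and E2f8, the 12 genes on each side with the lowest edgeR p among those without overlap between the groups and with at least 10 counts in every library of the higher group, genes called by DESeq2 that belong to a list, and, for the lists described at length, the 3 highest and lowest members and those without overlap. Members with a log2 fold change under 0.2 in size were not named under the last rule, and it was not carried through for the lists given only by counts. Cdk2, Ccne2, Mcm6, Mcm7, Cdt1, Insig1 and Bcl6 are described for their roles or their promoters as well. Some genes that meet these rules are not reported here.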

Additional observations from a re-analysis of the deposited data

Results flagged for a closer look

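In 23 of 278 groups of 4 tumors checked (8.27%), over 139 genes named or listed, 1 tumor lay apart from the other 3 by more than the 95% critical value of Dixon's test. That value allows about 5% of groups by chance, but many of these genes were chosen by their fold change in the same tumors. The check was also run on CPM without a log, so 8.27% was not read against 5%. The value given first for each is the gap to the nearest tumor as a share of the group's range. In DKO 1, Rb1 had a gap of 0.878, with 11.3 CPM against 7.99 to 8.38 CPM in the others. Ccnd1 had a gap of 0.965, with 73.2 CPM against 153 to 155 CPM in the others. Cyp17a1 had a gap of 0.993, with 489 CPM against 4.01 to 7.39 CPM in the others. Itga2 had a gap of 0.87, with 5.37 CPM against 1.83 to 2.29 CPM in the others. Nid1 had a gap of 0.838, with 483 CPM against 120 to 178 CPM in the others. In DKO 2, Ect2 had a gap of 0.896, with 22.3 CPM against 6.13 to 7.81 CPM in the others. In DKO 3, Urad had a gap of 0.945, with 187 CPM against 131 to 134 CPM in the others. Fgf21 had a gap of 0.874, with 0.769 CPM against 6.49 to 7.31 CPM in the others. Ndufb5 had a gap of 0.898, with 42.2 CPM against 39.9 to 40.2 CPM in the others.

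In DKO 4, Sult3a1 had a gap of 0.997, with 480 CPM against 4.9 to 6.27 CPM in the others. Cdkn1a had a gap of 0.905, with 17.5 CPM against 39.4 to 41.7 CPM in the others. Cyp4a14 had a gap of 0.879, with 18.3 CPM against 3.07 to 4.9 CPM in the others. Mvd had a gap of 0.891, with 63.1 CPM against 16.6 to 21.7 CPM in the others. Akr1b7 had a gap of 0.938, with 116 CPM against 2.48 to 9.51 CPM in the others. Ndufs5 had a gap of 0.882, with 6.96 CPM against 5.5 to 5.67 CPM in the others.

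In TKO 1, Rps27rt had a gap of 0.872, with 45.5 CPM against 30 to 32 CPM in the others. Gm6654 had a gap of 0.869, with 24.7 CPM against 13.2 to 14.7 CPM in the others. In TKO 3, Haus4 had a gap of 0.866, with 19.5 CPM against 16.1 to 16.5 CPM in the others. Hsd3b5 had a gap of 0.968, with 284 CPM against 21.5 to 29.9 CPM in the others. In TKO 4, Meg3 had a gap of 0.986, with 172 CPM against 0.904 to 3.22 CPM in the others. Rian had a gap of 0.98, with 90.8 CPM against 0.284 to 2.07 CPM in the others. Akr1b7 had a gap of 0.9, with 28.6 CPM against 0.767 to 3.55 CPM in the others. Col8a1 had a gap of 0.923, with 25 CPM against 2.07 to 3.84 CPM in the others.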

How the results depend on the processing

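edgeR's quasi-likelihood test called 0 genes in either direction under every alternative scaling, filter, set of samples, covariate, dispersion and threshold run, with limma voom and without each tumor in turn, and 717 higher and 533 lower genes had an unadjusted p under 0.05. DESeq2 called 24 higher and 32 lower, and edgeR's likelihood ratio test 14 higher and 21 lower. Genes without overlap numbered 353 to 442 higher under the other scalings and filters and 538 to 847 when 1 tumor was left out, which makes separation easier. Those lower numbered 70 with total counts as the only scaling, 273 to 382 under the other scalings and filters, and 390 to 861 when 1 tumor was left out. Rb1 differed by -1.11 to -0.86 on log2 CPM when 1 tumor was left out, and without DKO 4 (-1.03) its p of 0.0286 was past the threshold after adjustment because E2f7 then had the same p. The difference of E2f7 ran from -0.72 (without DKO 4, past the threshold as well) to 0.078 (without DKO 1), and was 0.011 without DKO 2, and that of E2f8 from 0.020 to 0.93. When 1 tumor was left out, the log2 fold change ranged from -0.039 to 1.17 for Ccne2, from -0.33 to 0.62 for Mcm6, from -0.057 to 0.88 for Cdkn3, from -0.12 to 0.60 for Ccnb2, from -0.067 to 0.43 for Scap, from -0.23 to 1.10 for E2f8, from -0.10 to 4.97 for Meg3, from -0.14 to 4.55 for Rian, from -0.14 to 1.68 for Col8a1, from -1.83 to 0.32 for Cdc6, from -0.66 to 0.082 for Ttc26 and from -3.97 to 0.33 for Akr1b7, and changed sign without TKO 1 for Ccne2, DKO 4 or TKO 1 for Mcm6, TKO 1 for Cdkn3, TKO 1 for Ccnb2, TKO 2 for Scap, TKO 3 for E2f8, TKO 4 for Meg3, TKO 4 for Rian, TKO 4 for Col8a1, DKO 2 for Cdc6, DKO 3 for Ttc26 and DKO 4 for Akr1b7. Without DKO 4, Mcm6 was at -0.088. Why these depended on 1 tumor was not tested. With the replicate number as a block, 0 genes were called higher and 0 lower, and Mcm6 was at -0.014. Same-numbered DKO and TKO tumors had deviations from their group means that correlated at -0.01 to 0.37 over 4 pairs, and 2 of 4 tumors correlated best with their own number, so the numbers, which the labels do not tie to a shared animal or day, were not taken to pair the tumors. The median of all tested genes was 0.11 with total counts as the only scaling, and list medians move with it.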

Other observations

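The maternally expressed RNAs Meg3 and Rian of the imprinted Dlk1-Dio3 region were high in a single tumor. Meg3 was at 172 CPM in TKO 4, between 0.904 and 3.22 CPM in the other TKO tumors, and at 2.15, 1.34, 2.43 and 1.53 CPM in DKO 1 to 4. Rian was at 90.8 CPM in TKO 4 and between 0.284 and 2.07 CPM in the other TKO tumors. Igf2, a fetal growth factor from another imprinted region, was at 0.843, 5.85, 3.25 and 0.413 CPM in DKO 1 to 4 and 0.301, 45.8, 25.5 and 0.671 CPM in TKO 1 to 4, so it was high in other TKO tumors than Meg3 was, and WT livers ranged from 0.678 to 57.9 CPM. The 22 tested imprinted genes as a whole had a median log2 fold change of -0.02.

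Of 11 tested T and NK cell markers 9 had a higher mean in TKO tumors (median 0.51), and of 11 tested B and plasma cell markers 8 had a lower one (median -0.44). The T and NK cell median was 0.20 without DKO 2 and 1.12 without DKO 3, and the B and plasma cell median changed sign to 0.86 without DKO 3. The medians over all 8 tumors were the ends of the range over the 30 other lists with at least 10 tested genes. Summed T and NK cell markers per total count were at 9.68 to 27.9 CPM in DKO tumors and 17.7 to 22.8 CPM in TKO tumors, and overlapped.

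The Y-linked histone demethylase gene Kdm5d was at 1.70 CPM in DKO 1, 1.06 CPM in DKO 2 and 2.33 CPM in TKO 1 per total count, and at 9.45 to 15.01 CPM in the other 9 libraries, while Ddx3y and Uty were not low in these 3 tumors. The Y-linked Eif2s3y was at 24.8, 32.7 and 29.9 CPM in DKO 1, DKO 2 and TKO 1. It was at 25.8 to 49.8 CPM in the other 9 libraries, so its value in DKO 1 was the lowest.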
